A study of Mus musculus with 17 samples.

Results

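The genes examined here act in inflammatory and lytic cell death: the caspases Casp1, Casp4, Casp8 and Casp12, the pore-forming gasdermin Gsdmd, the inflammasome sensor Nlrp3, and the necroptosis genes Ripk1, Ripk3 and Mlkl. These 9 genes were picked out by gene symbol, from a list chosen with earlier results of these data known. Each matched 1 gene of the 56748 in the count table, and all 9 were among the 16195 genes with enough counts to be tested. RNA came from whole hearts of mice aged 12 to 16 months, 8 control hearts (Ctrl) and 9 hMut hearts, with 1 library per heart. The hMut mice were homozygous for the inducible Polg iMut allele and carried Ckmm-cre, a Cre recombinase driven by the muscle creatine kinase promoter, which is active in heart and skeletal muscle, so that recombination switched the heart to the proofreading-deficient mitochondrial DNA polymerase POLG D257A. The genotype of the Ctrl hearts and the sex of each mouse are not given in the labels. Nothing in the labels marks a shared litter or batch, and hearts are named here by group and replicate number.

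A pair of routes to lytic death meet in these genes. In pyroptosis, an inflammasome built on a sensor such as NLRP3 activates caspase-1, while caspase-11, the product of mouse Casp4, responds to intracellular lipopolysaccharide, and both cut gasdermin D so that its N-terminal part opens pores in the plasma membrane. In necroptosis, RIPK1 and RIPK3 join through a shared RHIM motif, RIPK3 phosphorylates MLKL, and MLKL then breaks the membrane, whereas caspase-8 cuts both kinases and holds this route back. In the heart these genes are known from ischaemic injury and heart failure, and several are expressed by macrophages as well as by cardiomyocytes.

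Total counts lay between 34425783 and 46486964 in the Ctrl libraries and between 32915159 and 40175122 in the hMut libraries. Genes encoded in mtDNA made up 23.5% to 30.9% of the counts in Ctrl and 15.9% to 23% in hMut. Polg itself, the targeted gene, was at 34.7 ± 7.31 CPM (counts scaled to a common library size with edgeR's TMM factors; SD, n = 8) in Ctrl and at 57.9 ± 6.08 CPM (SD, n = 9) in hMut. The summed level of 6 cardiomyocyte markers was at least 24606 CPM in every heart. Before any result, 3 hearts have to be named because they stood apart. hMut replicates 6 and 9 had the highest summed levels of myeloid genes, with 14 of 14 myeloid markers above every Ctrl heart in both, and Ctrl replicate 3 had 172 CPM of summed B cell markers against a Ctrl median of 17.7 CPM. The fold changes of the members and of the pathway genes named are therefore also given without hMut replicates 6 and 9. In whole-heart RNA, fewer cells of a type and less RNA per cell cannot be told apart.

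None of the 9 genes passed the test. At an adjusted p under 0.05 in edgeR's quasi-likelihood test (Benjamini-Hochberg adjustment over all 16195 genes), 0 of 9 were called higher and 0 of 9 lower in hMut, beside 3.48% of all genes called higher and 1.14% called lower. At an unadjusted p under 0.05, 2 of 9 passed in edgeR (Nlrp3 and Mlkl), beside 25.8% of all genes. DESeq2 called 0 of 9, beside 9.33% of its genes, and limma-voom with sample weights called 0 of 9, beside 12.8%. All 9 log2 fold changes were above 0, beside 8178 of all 16195 genes, with a median of 0.27 beside 0.0023 over all genes. No gene had every hMut heart above every Ctrl heart, which held for 0.543% of all genes. The plot of levels by heart shows that the highest hMut value of each of the 9 genes belonged to replicate 6.

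**Figure D1:**
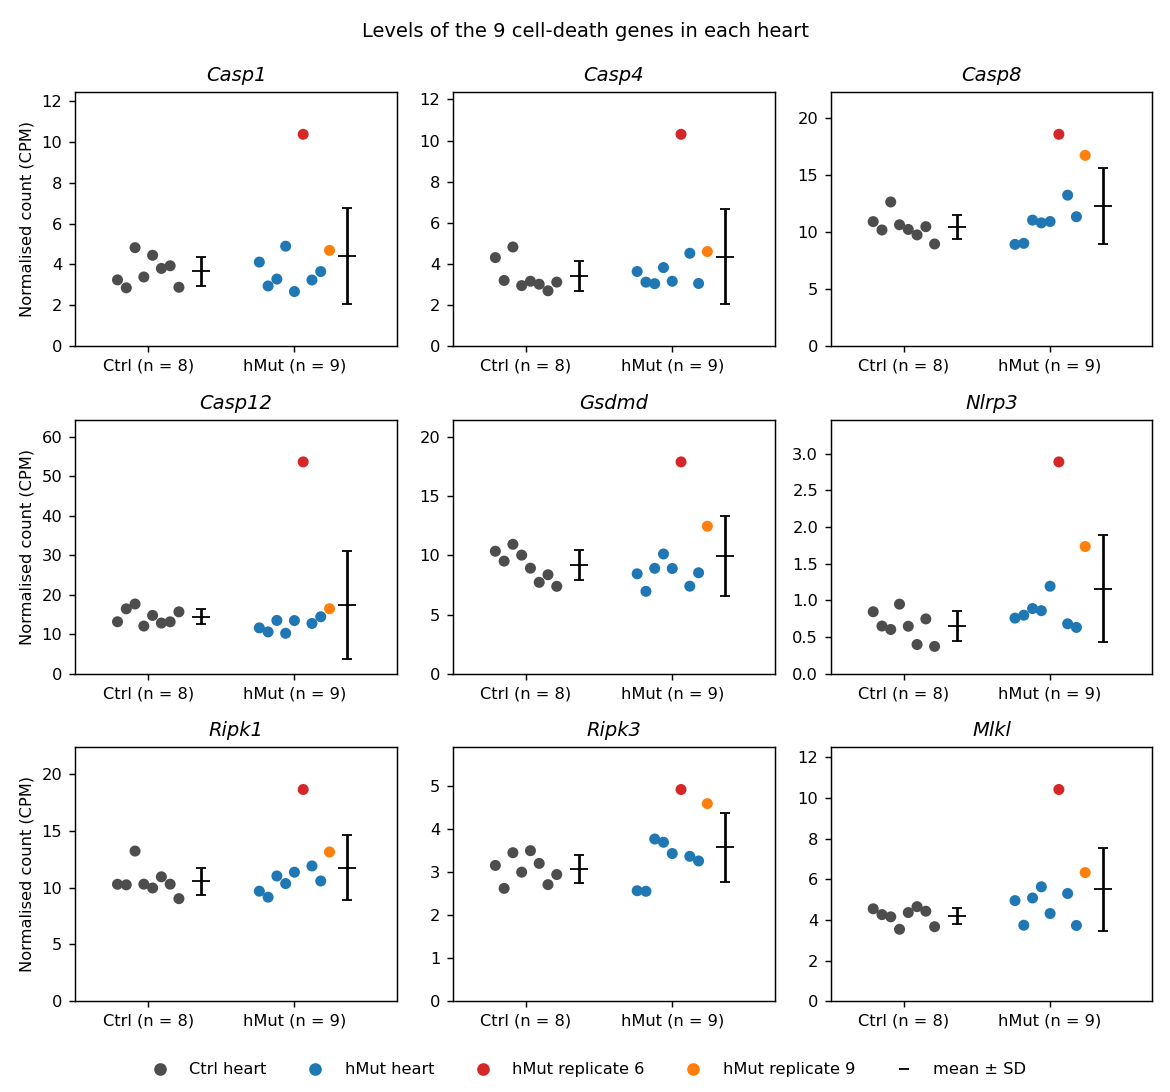
Each panel plots 1 gene, with the normalised count in CPM on the vertical axis (starting at 0) and 1 point per heart, 8 Ctrl hearts on the left and 9 hMut hearts on the right; hMut replicate 6 is red, hMut replicate 9 is orange, and the black mark with its bar is the mean ± SD. In all 9 panels the red point is the highest of the 17, and for Casp12 it sits at 53.6 CPM while the other 16 hearts lie between 10.2 and 17.6 CPM.

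On the scale of CPM per kilobase of gene length, the only one on which levels of different genes can be compared, Gsdmd, Casp12 and Casp8 stood highest in the Ctrl hearts, with medians of 3.88, 3.63 and 3.57 CPM per kb. Their ranges overlapped one another, so the order among these 3 is not resolved. Mlkl followed at 1.87 CPM per kb, and its range of 1.54 to 2.02 did not reach that of Casp8 but met that of Ripk1. Ripk3 (1.34 CPM per kb), Ripk1 (1.23) and Casp1 (1.15) overlapped in their ranges, Casp4 had a median of 0.844 CPM per kb with a range that overlapped all 3, and Nlrp3 was the lowest at 0.160 CPM per kb. The Nlrp3 range of 0.0916 to 0.234 CPM per kb lay below that of every other member. Nlrp3 was also the most thinly counted of them, with 14 to 122 counts per library.

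Casp1, Casp4 and Casp12 lie in a row on the plus strand of chromosome 9. Casp1 (ENSMUSG00000025888) spans chr9:5298508-5307290 of GRCm39, Casp4 (ENSMUSG00000033538) spans chr9:5308828-5336783, and Casp12 (ENSMUSG00000025887) spans chr9:5345430-5373032. Caspase-1 is the protease that matures interleukin-1β and interleukin-18, caspase-11 cuts gasdermin D directly, and caspase-12 has been linked to stress of the endoplasmic reticulum. All are cysteine proteases, and the coding sequence around the active-site cysteine shows their kinship. The stretches below are read from the coding strand of the GRCm39 transcripts, with the 5 codons of the active-site pentapeptide (glutamine, alanine, cysteine, any residue, glycine) in capitals, and Casp8 is set beside the neighbours as the member from another chromosome.
Casp1: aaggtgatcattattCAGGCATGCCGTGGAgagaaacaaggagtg
Casp4: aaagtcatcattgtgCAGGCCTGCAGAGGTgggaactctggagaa
Casp12: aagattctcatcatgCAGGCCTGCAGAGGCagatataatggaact
Casp8: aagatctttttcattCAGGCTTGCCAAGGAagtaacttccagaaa
In Casp1 the stretch joins exons 6 and 7 (chr9:5303744-5304200), in Casp4 exons 5 and 6 (chr9:5324928-5327189) and in Casp12 exons 7 and 8 (chr9:5353838-5354547), in each case with 31 of the 45 bases in the first of the pair. In Casp8 it lies within exon 8 (chr1:58883757-58883801). Despite the likeness of the proteins, the longest run of identical bases between their transcripts was 14 for Casp1 and Casp4, 18 for Casp1 and Casp12 and 21 for Casp4 and Casp12, and over all 36 pairs of the 9 genes it was 26. No run as long as 30 bases was shared.

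Casp1 ranged from 2.85 to 4.82 CPM in the Ctrl hearts, with a median of 3.59, and from 2.67 to 10.4 CPM in the hMut hearts, with a median of 3.65. The groups overlapped almost entirely, with hMut replicates 4 (4.89 CPM) and 6 (10.4 CPM) above every Ctrl heart and replicate 5 (2.67 CPM) below every one. A log2 fold change of 0.27 resulted (SE 0.23, 95% confidence interval -0.21 to 0.75, adjusted p = 0.451).

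Casp4 ranged from 2.69 to 4.82 CPM in Ctrl (median 3.13) and from 3.03 to 10.3 CPM in hMut (median 3.63). Only hMut replicate 6 lay outside the Ctrl range. On the log2 scale the fold change was 0.36 (SE 0.23, interval -0.12 to 0.84, adjusted p = 0.314). Replicate 6 was at 3.29 times the Ctrl median and replicate 9 at 1.47 times. The log2 fold change was 0.09 without replicate 6 and 0.03 (SE 0.13, adjusted p = 0.932) without both.

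Casp12 ranged from 12.0 to 17.6 CPM in Ctrl (median 13.9) and from 10.2 to 53.6 CPM in hMut (median 13.4), and the median of the 7 hMut hearts other than replicates 6 and 9 was 12.7 CPM. Replicate 6 lay above every Ctrl heart, at 3.85 times the Ctrl median, while 3 hMut hearts (replicates 1, 2 and 4) lay below every Ctrl heart. The log2 fold change was 0.27 (SE 0.28, interval -0.32 to 0.86, adjusted p = 0.556) and had the opposite sign without replicate 6, at -0.17 (adjusted p = 0.332). DESeq2, which by default replaced 1 Casp12 count that it took for an outlier, gave -0.16 (adjusted p = 0.304).

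Nlrp3 (ENSMUSG00000032691, chr11:59432394-59457782, plus strand) encodes the sensor that assembles with the adaptor ASC and caspase-1. Its levels were 0.371 to 0.949 CPM in Ctrl (median 0.648) and 0.631 to 2.89 CPM in hMut (median 0.859). Replicates 5 (1.19 CPM), 6 (2.89 CPM) and 9 (1.74 CPM) exceeded every Ctrl heart, no hMut heart was below the Ctrl range, and the other 6 hMut hearts overlapped it. The log2 fold change of 0.84 was the largest of the 9 (SE 0.31, interval 0.20 to 1.48, adjusted p = 0.108). It was 0.35 (SE 0.21, adjusted p = 0.379) without replicates 6 and 9.

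Gsdmd (ENSMUSG00000022575, chr15:75734176-75739257, plus strand) encodes the pore former of pyroptosis. The site at which inflammatory caspases cut the protein is encoded across exons 7 and 8 (chr15:75738001-75738164) and is shown with its 5 codons (leucine, leucine, serine, aspartate, glycine) in capitals, the cut falling after the aspartate.
Gsdmd: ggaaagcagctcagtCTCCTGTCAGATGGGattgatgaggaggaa
Gsdmd transcript was at 7.38 to 10.9 CPM in Ctrl (median 9.22) and at 6.96 to 17.9 CPM in hMut (median 8.89), so the hMut median was below that of Ctrl although the mean was above it. Replicates 6 (17.9 CPM) and 9 (12.5 CPM) lay above every Ctrl heart and replicate 2 (6.96 CPM) below. The log2 fold change was 0.12 (SE 0.16, interval -0.21 to 0.46, adjusted p = 0.634) with all hearts, and -0.11 (SE 0.094, adjusted p = 0.565) without replicates 6 and 9. Cutting of the protein is not seen in these data, which count RNA only.

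Casp8 (ENSMUSG00000026029, chr1:58834533-58886662, plus strand) encodes the initiator caspase of the death receptors, which also restrains RIPK3. It was at 8.94 to 12.6 CPM in Ctrl (median 10.3) and at 8.90 to 18.5 CPM in hMut (median 11.0). It stood at 1.79 times the Ctrl median in replicate 6 and at 1.62 times in replicate 9, and replicate 7 (13.2 CPM) was also above every Ctrl heart. Over all hearts its log2 fold change was 0.23 (SE 0.13, interval -0.04 to 0.51, adjusted p = 0.265), and 0.04 (SE 0.08, adjusted p = 0.843) without replicates 6 and 9.

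The necroptosis kinases share the RHIM, a short motif through which they stack into fibres. Its 4 core residues are encoded by the capitals below, within exon 10 of either gene (chr13:34214046-34214087 for Ripk1, chr14:56022747-56022788 on the minus strand for Ripk3), and the stretches are shown because this is the motif through which the products of both genes meet.
Ripk1: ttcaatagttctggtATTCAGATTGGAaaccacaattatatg
Ripk3: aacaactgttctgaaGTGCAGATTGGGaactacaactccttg
Ripk1 (ENSMUSG00000021408, chr13:34186346-34221130, plus strand) was at 9.03 to 13.2 CPM in Ctrl (median 10.3) and at 9.16 to 18.6 CPM in hMut (median 11.0). Only hMut replicate 6 lay outside the Ctrl range. The log2 fold change was 0.16 (SE 0.12, interval -0.09 to 0.41, adjusted p = 0.388), and without replicates 6 and 9 it was 0.0075 (SE 0.08, adjusted p = 0.973). Its first 432 bases overlap Serpinb6a on the opposite strand, a gene with a median of 3986 counts per library, and since it is not stated whether counting used the strand, the Ripk1 level is uncertain.

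Ripk3 (ENSMUSG00000022221, chr14:56022452-56026322, minus strand), the kinase that acts on MLKL, was at 2.63 to 3.50 CPM in Ctrl (median 3.08) and at 2.56 to 4.93 CPM in hMut (median 3.44). It split the hMut hearts most evenly, with replicates 3, 4, 6 and 9 above every Ctrl heart and replicates 1 and 2 below every one. Its log2 fold change was 0.22 (SE 0.13, interval -0.05 to 0.48, adjusted p = 0.272), and replicate 6 exceeded the Ctrl median by 1.60-fold, the smallest excess of that heart among the 9 genes. Without replicates 6 and 9 it was 0.08 (SE 0.11, adjusted p = 0.750).

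Mlkl (ENSMUSG00000012519, chr8:112038429-112064809, minus strand) encodes the executioner of necroptosis. It ranged from 3.54 to 4.65 CPM in Ctrl (median 4.32) and from 3.73 to 10.4 CPM in hMut (median 5.08). More hMut hearts, 6 of 9, exceeded every Ctrl heart for Mlkl than for any other member, namely replicates 1, 3, 4, 6, 7 and 9, and none was below the Ctrl range. With all hearts the log2 fold change was 0.39 (SE 0.17, interval 0.04 to 0.74, adjusted p = 0.155), and without replicates 6 and 9 it was 0.16 (SE 0.10, adjusted p = 0.433), although the median of the other 7 hearts, 4.95 CPM, was still above the highest Ctrl heart.

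Read by heart instead of by gene, the members were high together in few hearts. In replicate 6, 9 of 9 members were above every Ctrl heart, beside 31.1% of all genes tested, and in replicate 9 it was 5 of 9 (Casp8, Gsdmd, Nlrp3, Ripk3 and Mlkl), beside 27.9% of all genes. The other 7 hMut hearts had 0 to 3 of 9 members above the Ctrl range, beside 10.9% to 17.7% of all genes. In replicates 1 and 2, 3 of 9 members each were below it, beside 10.7% and 10.4% of all genes, and Casp12 and Ripk3 were among them in both hearts. Relative to the Ctrl median, replicate 6 was highest for Nlrp3 (4.46-fold), Casp12 (3.85-fold), Casp4 (3.29-fold) and Casp1 (2.89-fold), and lower for Mlkl (2.42-fold), Gsdmd (1.94-fold), Ripk1 (1.81-fold), Casp8 (1.79-fold) and Ripk3 (1.60-fold). In replicate 9 the order was another, with Nlrp3 at 2.68-fold, Casp8 at 1.62-fold and Casp12 the lowest at 1.18-fold.

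Some marker lists moved with the members in these hearts, and others did not. The 14 myeloid markers summed to 252 to 394 CPM in Ctrl and to 324 to 441 CPM in the other 7 hMut hearts, but to 1451 CPM in replicate 6 and 727 CPM in replicate 9. Replicates 5 (417 CPM) and 7 (441 CPM) also exceeded every Ctrl heart in this sum, with 6 and 8 of the 14 markers above the Ctrl range. The sums of the remaining hMut hearts lay within it. The 13 T and NK cell markers summed to 3.29 to 15.0 CPM in Ctrl, 3.45 to 7.39 CPM in the other 7 hMut hearts, 96.3 CPM in replicate 6 and 11.0 CPM in replicate 9, and 10 of them were above every Ctrl heart in replicate 6. The natural killer markers Klrb1c and Ncr1 and the granzyme gene Gzma were at 0 counts in at least 1 library. Fibroblast markers were at 702 to 788 CPM in Ctrl, 1185 CPM in replicate 6 and 995 CPM in replicate 9, with 5 of 6 above every Ctrl heart in both, and cardiomyocyte markers were at 0.706 times the Ctrl median in replicate 6 and 0.645 times in replicate 9. Neutrophil markers summed to 2.32 to 6.65 CPM in Ctrl, and were highest in replicates 6 (8.03 CPM) and 9 (6.97 CPM), above every other heart. Of these 6 markers, only 1 in replicate 6 and 2 in replicate 9 were above every Ctrl heart, and the defining gene Ly6g was at 0 in some hearts. The part of these cell types in the member levels was not tested. The heatmap of member and marker levels sets the values side by side.

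**Figure D2:**
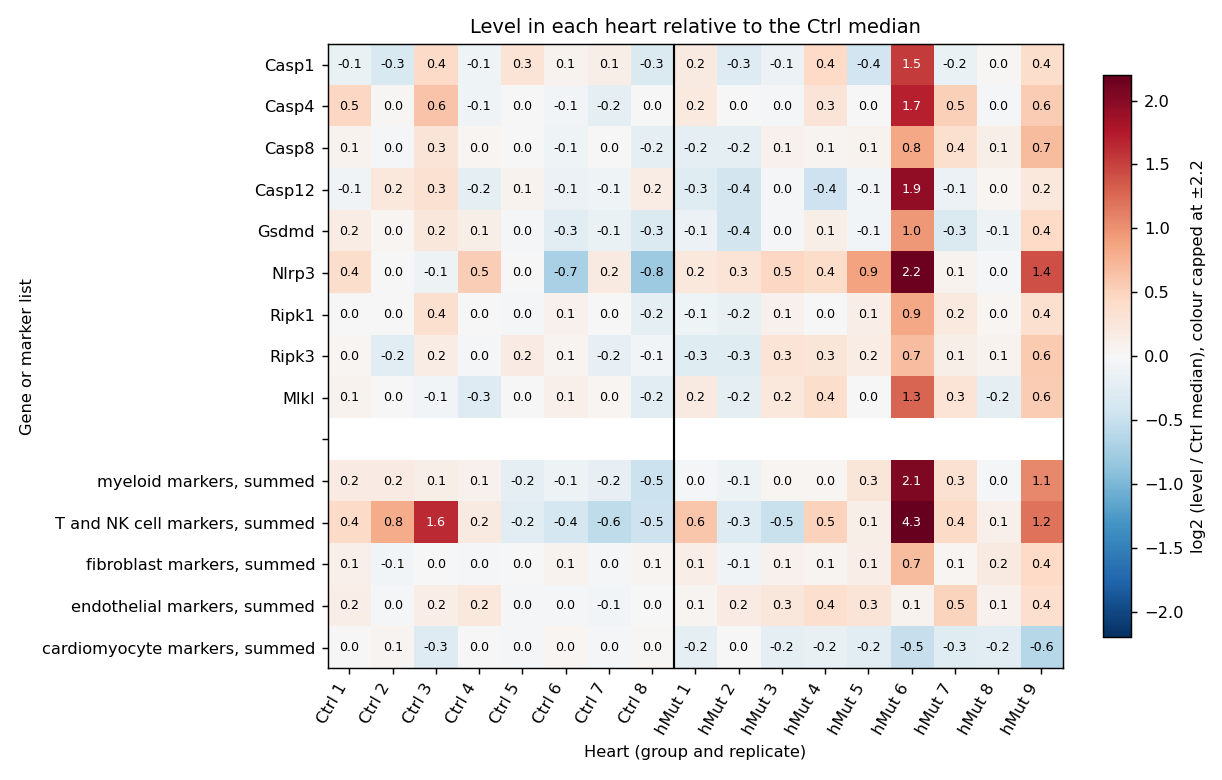
Rows are the 9 genes and, below the gap, the summed levels of 5 marker lists; columns are the 8 Ctrl and 9 hMut hearts, parted by a black line, and the number in each cell is log2 of the level over the Ctrl median (colour capped at ±2.2). In the hMut replicate 6 column every member is positive, together with the myeloid (1451 CPM), T and NK cell (96.3 CPM) and fibroblast (1185 CPM) sums, while the cardiomyocyte sum is negative.

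Without replicates 6 and 9, edgeR called 0 of 9 members over the remaining 15 hearts, beside 2.67% of all genes. At an unadjusted p under 0.05, 1 of 9 passed (Casp12, in the lower direction), beside 3010 of the 16159 genes then tested. The log2 fold changes then lay between -0.23 (Casp12, SE 0.092, adjusted p = 0.192) and 0.35 (Nlrp3). Of the 9, 6 were above 0, and the median of all 9 was 0.03, beside -0.0058 over all genes. Casp1 (-0.05) and Gsdmd (-0.11) changed sign along with Casp12. Nlrp3, Mlkl, Ripk3, Casp8, Casp4 and Ripk1 kept theirs. The plot of fold changes with and without these hearts shows each estimate moving lower as replicate 6 and then replicate 9 are left out. Replicate 6 held the highest hMut value of all 9 genes, so a lower estimate without it was fixed in advance and is no separate result.

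**Figure D3:**
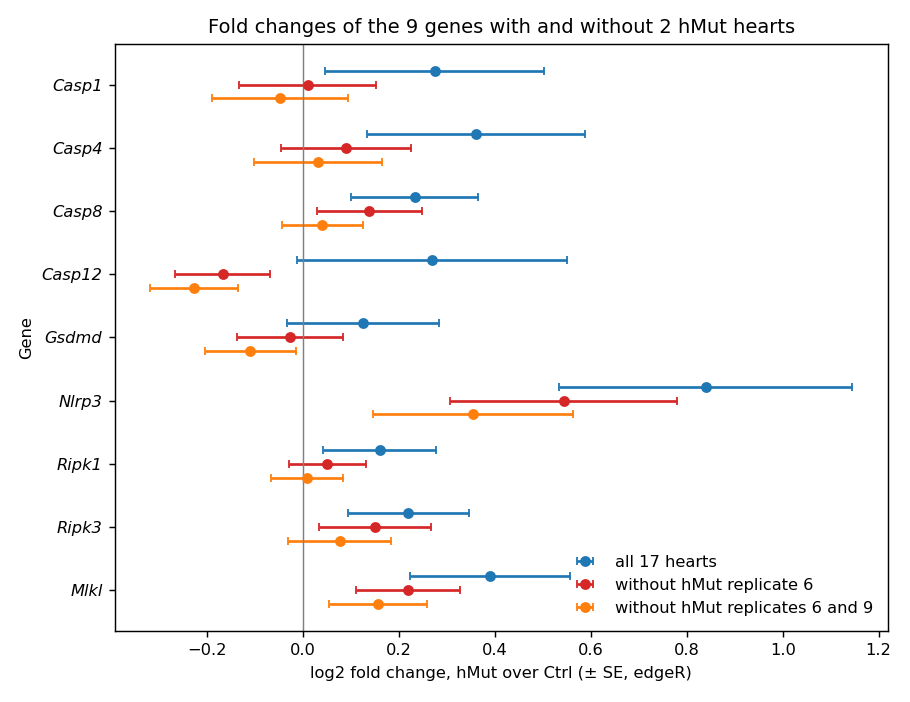
For each of the 9 genes the horizontal axis gives the log2 fold change of hMut over Ctrl with its standard error (edgeR), in blue for all 17 hearts, in red without hMut replicate 6 and in orange without hMut replicates 6 and 9. All 9 blue points are above 0, and the orange points of Casp1, Casp12 and Gsdmd are below it.

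Among the Ctrl hearts, replicate 3 held the highest level of 6 of the 9 members (Casp1, Casp4, Casp8, Casp12, Gsdmd and Ripk1). That heart also had the highest sum of T and NK cell markers among the Ctrl hearts, at 15.0 CPM, and the lowest sum of cardiomyocyte markers, at 31497 CPM. Without Ctrl replicates 2 and 3, 0 of 9 members passed, and the log2 fold changes of Casp4 and Ripk1 were 0.45 and 0.21.

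Promoter windows of RefSeq (build GRCm38.p6, 250 bases before to 50 bases after each start) held 11 windows for 8 of the members, and none for Gsdmd. Each matched its chromosome of the GRCm39 genome exactly and once. The motifs searched, on both strands and each 9 bases long, were 4: an interferon-stimulated response element (GAAANNGAA, in 8.56% of all 32851 windows), a gamma-activated site (TTCNNNGAA, 8.30%), an NF-kB core (GGGANNTTC, 3.94%) and a C/EBP-ATF response element (TGATGNAAT, 0.96%). The first was found in Ripk1 and Ripk3, the second in Casp12 and Ripk1, and the last 2 in none. Casp12 is shown because it had the widest gap between replicate 6 and the next hMut heart relative to its range over the hMut hearts, and Ripk1 because it carried matches to both motifs. The stretches run from 120 bases before the start to 10 bases after it (chr9:5345356-5345485 for Casp12, chr13:34186737-34186866 for Ripk1, both plus strand), with the matches in capitals.
Casp12: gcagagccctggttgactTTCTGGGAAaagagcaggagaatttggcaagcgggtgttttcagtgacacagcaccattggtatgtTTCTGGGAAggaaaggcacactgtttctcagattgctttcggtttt
Ripk1: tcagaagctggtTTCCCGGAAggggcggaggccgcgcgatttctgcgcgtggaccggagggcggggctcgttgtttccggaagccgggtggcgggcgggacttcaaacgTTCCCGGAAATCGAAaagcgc
Casp12 had the same 9 bases at positions -102 and -36 from its start. In the downstream Ripk1 start, gamma-activated sites began at -108 and -11, and the second overlapped an interferon-stimulated response element that began at -5. The windows of Casp1, Casp4, Casp8, Nlrp3 and Mlkl held none of the 4 motifs. These matches are a description of letters and no measure of binding.

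To place the members in their pathway, 6 lists with 79 further genes were followed, of which 77 were in the count table and 63 were tested. Of these, 3 were called higher and 0 lower in hMut, 13 had an unadjusted p under 0.05 in edgeR, and 47 of 63 log2 fold changes were above 0, with a median of 0.13. Over all genes tested, 3.48% were called higher, 1.14% lower, and 25.8% had an unadjusted p under 0.05. Of all 16195 log2 fold changes, 8178 were above 0, with a median of 0.0023. Without replicates 6 and 9, 30 of 63 were above 0, 1 was called higher (Tnip1) and 1 lower (Aim2). Over all 16159 genes then tested, 316 were called higher and 115 lower, and the median log2 fold change was -0.0058. The hearts left out held the highest hMut values of Aim2, so a lower estimate of it was fixed in advance. The plot of the pathway genes by list shows each value with its interval.

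**Figure D4:**
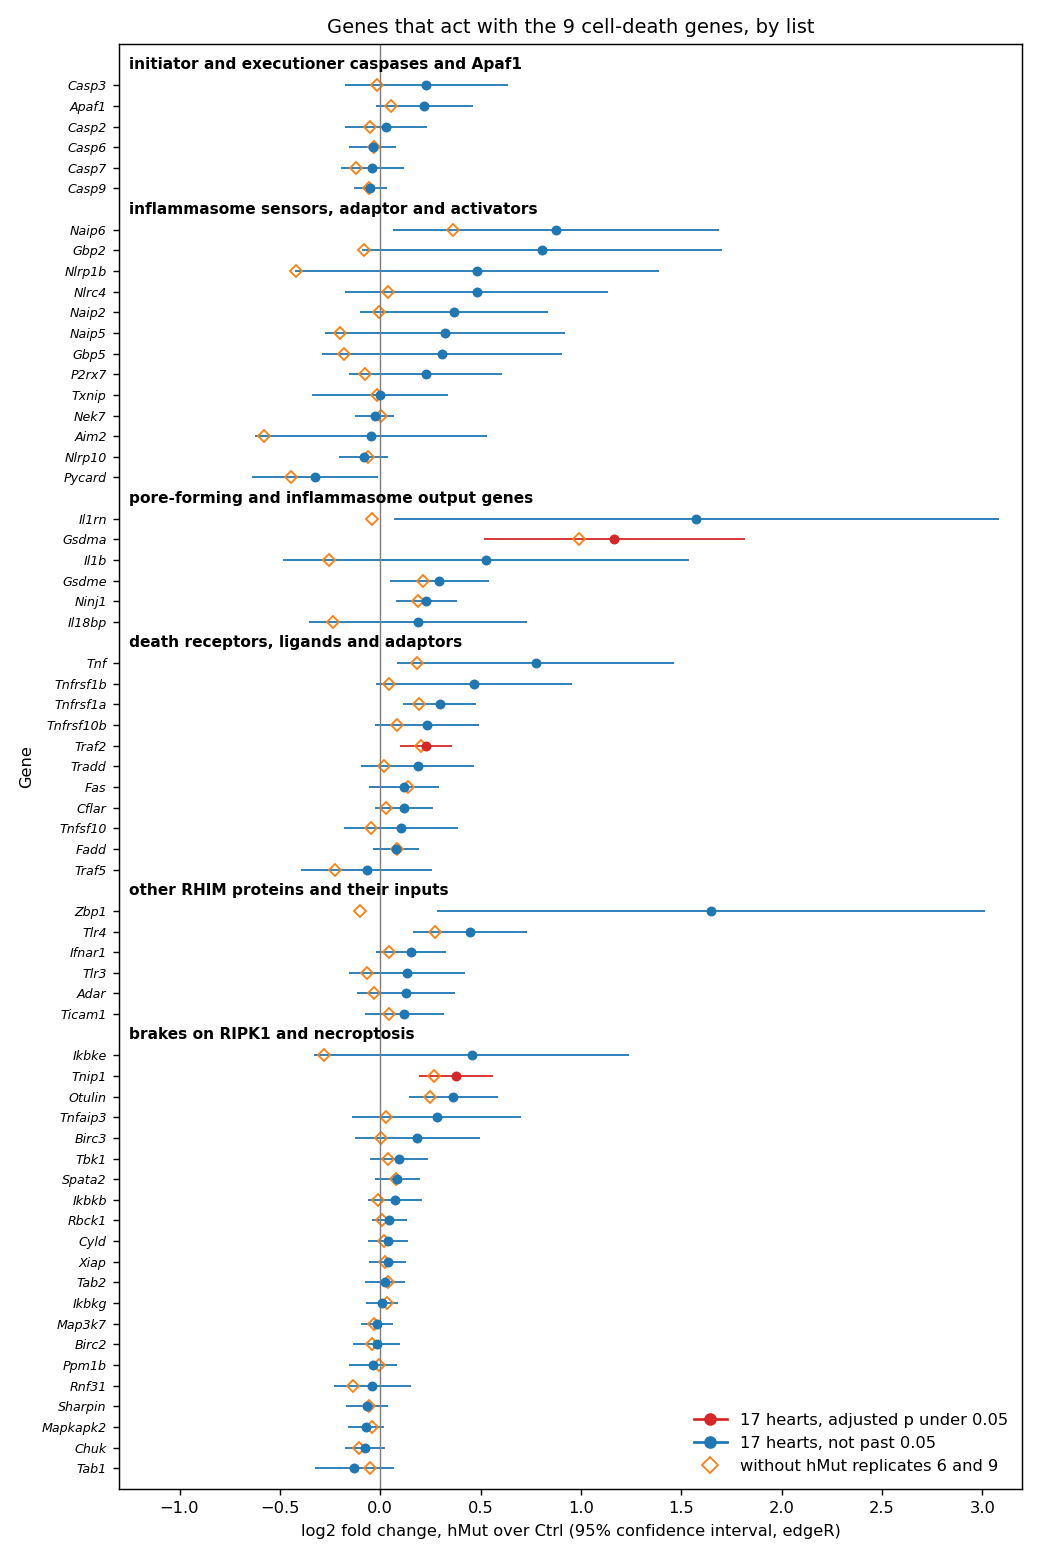
Each line is 1 of the 63 tested genes, grouped under the 6 lists; the horizontal axis gives the log2 fold change of hMut over Ctrl with its 95% confidence interval over 17 hearts, red where the adjusted p was under 0.05 and blue elsewhere, and the open diamond is the value without hMut replicates 6 and 9. Gsdma, Traf2 and Tnip1 are the 3 red points, and the diamonds of Zbp1 and Il1rn lie far to the left of their filled points.

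Upstream of the members, the death receptor list (receptors, ligands and adaptors) had 1 of 11 tested genes called in edgeR. Traf2, an adaptor of the TNF receptor that recruits ubiquitin ligases to RIPK1, was at 15.2 to 19.3 CPM in Ctrl and 17.4 to 22.8 CPM in hMut, with 7 of 9 hMut hearts above every Ctrl heart. Its means were 17.5 ± 1.56 CPM (SD, n = 8) and 20.5 ± 1.69 CPM (SD, n = 9), a log2 fold change of 0.23 (SE 0.06, adjusted p = 0.0426). Without replicates 6 and 9 it was 0.20 (SE 0.07), and the call was lost (adjusted p = 0.103). DESeq2 and limma-voom also called Tnfrsf1a, which encodes the main TNF receptor and had a log2 fold change of 0.30 (SE 0.09, adjusted p = 0.0552) in edgeR. Fasl had too few counts to be tested. Among the 21 tested genes that restrain RIPK1 and necroptosis, 1 was called in edgeR. Tnip1, which encodes the A20-binding protein ABIN-1, was at 42.6 ± 3.79 CPM in Ctrl and 55.4 ± 9.35 CPM in hMut, above every Ctrl heart in 7 of 9 hMut hearts, with a log2 fold change of 0.38 (SE 0.09, adjusted p = 0.0213). It was the one pathway gene called higher without replicates 6 and 9 (0.27, adjusted p = 0.0307). DESeq2 and limma-voom also called Otulin, a linear deubiquitinase, at a log2 fold change of 0.36 (SE 0.11, adjusted p = 0.0552) in edgeR.

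In the list of other RHIM proteins and their inputs, 0 of 6 genes passed in edgeR, 2 had an unadjusted p under 0.05, and DESeq2 and limma-voom each called Tlr4 alone. Zbp1, the nucleic acid sensor that binds RIPK3 through its own RHIM, was at 1.16 to 2.46 CPM in the Ctrl hearts. In hMut replicates 6 and 9 it reached 31.7 and 6.49 CPM, while the other 7 hMut hearts lay between 1.10 and 3.03 CPM. Its log2 fold change of 1.65 (SE 0.65, adjusted p = 0.130) became -0.10 without those hearts. Tlr4, the receptor for lipopolysaccharide, had a log2 fold change of 0.45 (SE 0.14, adjusted p = 0.0616), and of 0.27 (SE 0.10, adjusted p = 0.150) without them.

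In the list of inflammasome sensors, adaptor and activators, 0 of 13 tested genes passed in edgeR and 2 had an unadjusted p under 0.05, while DESeq2 called none and limma-voom called Aim2 and Pycard. Pycard encodes the adaptor ASC between NLRP3 and caspase-1. With all hearts its log2 fold change was -0.33 (SE 0.15, adjusted p = 0.180), opposite in sign to all 9 members. Without replicates 6 and 9 it was -0.45 (adjusted p = 0.0666), and Casp1, Casp12 and Gsdmd were then below 0 too. With replicate 6 alone left out, the hMut heart with its highest level (4.83 CPM), edgeR called Pycard lower. Naip6, a cofactor of the NLRC4 inflammasome, had a log2 fold change of 0.88 (SE 0.39, adjusted p = 0.166) and of 0.36 (SE 0.32, adjusted p = 0.579) without those hearts, and its near copies Naip2 and Naip5 make its count uncertain. Aim2, a sensor of cytosolic DNA, was chosen for mention after its values were seen. It was at 2.17 to 3.04 CPM in Ctrl, at 1.31 to 2.15 CPM in the 7 other hMut hearts, and at 6.49 CPM in replicate 6 and 3.85 CPM in replicate 9. Its log2 fold change was -0.05 (adjusted p = 0.932) with all hearts and -0.58 (SE 0.13, adjusted p = 0.0168) without those 2. Both held higher Aim2 values than any other hMut heart, so a lower estimate without them was fixed in advance.

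Downstream, 1 of 6 tested pore-forming and inflammasome output genes was called in edgeR. Gsdma, a gasdermin best known from skin, was at 0.162 to 0.349 CPM in Ctrl and at 0.138 to 0.924 CPM in hMut, above every Ctrl heart in 7 of 9 and below in 1. Its log2 fold change was 1.17 (SE 0.31, adjusted p = 0.0396), and it rested on 5 to 41 counts per library. Without replicates 6 and 9 it was 0.99 (SE 0.32), and the call was lost (adjusted p = 0.107). DESeq2 and limma-voom also called Ninj1, whose product ruptures the membrane of dying cells, at a log2 fold change of 0.23 (SE 0.07, adjusted p = 0.0727) in edgeR. Tnfrsf1a, Otulin and Ninj1 were picked for mention because of these calls, with their values known. Their log2 fold changes in edgeR without replicates 6 and 9 were 0.19 (adjusted p = 0.123), 0.25 (adjusted p = 0.137) and 0.19 (adjusted p = 0.164). Il18, Il1a and the 6 other gasdermin genes Gsdma2, Gsdma3, Gsdmc, Gsdmc2, Gsdmc3 and Gsdmc4 had too few counts to be tested. Among the other caspases and Apaf1, 0 of 6 tested genes passed in edgeR, DESeq2 or limma-voom and none had an unadjusted p under 0.05. Their median log2 fold change was -0.0045, with Apaf1, the scaffold of the apoptosome, at 0.22 (SE 0.12, adjusted p = 0.233) and Casp9, the caspase it activates, at -0.05 (SE 0.04, adjusted p = 0.428). Apaf1 was at 0.05 (adjusted p = 0.720) and Casp9 at -0.06 (adjusted p = 0.495) without replicates 6 and 9.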

How the data were processed

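Per gene, the deposited table holds unscaled read counts. The authors made these counts from poly(A)-selected RNA by filtering reads with fastp, aligning them to GRCm39 with HISAT2 2.2.1 and counting them with featureCounts 2.0.6. DESeq2 1.42.0 is the tool named in the submitters' processing notes. Whether counting used the strand or reads with several matches is not given in the sources used here. Groups came from the sample labels. Genes were filtered with edgeR's filterByExpr, scaled with TMM factors and tested with the quasi-likelihood F test of edgeR 4.0.16 (R 4.3.3), with genotype as the only term and Benjamini-Hochberg adjustment over all 16195 genes at a threshold of 0.05. Standard errors are the log2 fold change over the square root of F. The p-values set the difference between the groups against the spread of these 17 hearts within their groups, estimated with information shared across genes. The script was tested on simulated counts. The members and lists were chosen with earlier results of these data known.

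All 9 members are named. Of each pathway list, the genes past the threshold are named, or the 2 with the smallest p where none passed, with Aim2, Tnfrsf1a, Otulin and Ninj1 as exceptions. No copy of a library was found (Spearman correlations of 0.950 to 0.995). Alternatives were DESeq2 1.42.0 with and without its outlier replacement, limma 3.58.1 (voom), RLE scaling, other filters, mtDNA-encoded genes left out, sex as a covariate, a replicate block and hearts left out. Sex was inferred from counts of Xist against Y-linked genes, by which 3 Ctrl and 2 hMut hearts were female-like. Coding stretches came from the GENCODE canonical transcripts on GRCm39 and were located by translation with Biopython 1.88. The mtDNA mutation burden of the hearts was not used here.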

Additional observations from a re-analysis of the deposited data

Results flagged for a closer look

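In the 17 gene and marker measures, the gap between the most extreme heart of a group and its nearest neighbour was set against the range of the group (Dixon's criterion on log2 CPM, 34 tests), and 5 passed, 4 of them in hMut replicate 6. Chance passes about 5% of such groups. Casp1 (10.4 CPM), Casp4 (10.3 CPM) and Casp12 (53.6 CPM) were each highest in that heart by a gap of this size, as were the T and NK cell markers at 96.3 CPM. In Ctrl replicate 3, the cardiomyocyte markers, at 31500 CPM, were the lowest of the Ctrl hearts by such a gap. The other 6 members did not pass the criterion in either group.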

How the results depend on the processing

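No member passed under any of the 28 alternatives (8 of 9 tested with DESeq2 without outlier replacement, which gave Casp12 no adjusted p, and all 9 in the others), with adjusted p-values from 0.0639 (Nlrp3) upwards. The sign of 6 members held throughout, and that of 3 did not. Casp1 was at -0.0070 with limma-voom and -0.048 without hMut replicates 6 and 9. Casp12 was at -0.16 with DESeq2, -0.14 with limma-voom and -0.23 without hMut replicates 6 and 9. Gsdmd was at -0.0018 with limma-voom and -0.11 without hMut replicates 6 and 9. Leaving out 1 heart at a time gave -0.17 to 0.34 for Casp12 and -0.026 to 0.18 for Gsdmd, the lowest without hMut replicate 6 in both. The 749 genes called in all became 1517 with DESeq2 (1534 without outlier replacement, a setting chosen after seeing the data), 463 without a filter, 2081 with limma-voom, 431 without hMut replicates 6 and 9, 373 without Ctrl replicates 2 and 3, and 395 to 1792 with 1 heart left out. The 3 pathway genes called became 7 with DESeq2 under either setting, 1 without a filter, 1 with sex as a covariate, 9 with limma-voom, 2 without hMut replicates 6 and 9, 0 without Ctrl replicates 2 and 3, and 1 to 7 with 1 heart left out. Tnip1 passed under 26 of the 28, Gsdma and Traf2 under 12. Of the genes called, 564 were higher and 185 lower, against 1175 and 906 with limma-voom. The replicate block, fitted on 8 hearts per group, gave 185 genes, 0 members and 0 pathway genes. Deviations of same-numbered hearts correlated at -0.27 to 0.421, over 0.1 in 1 of 8. Such correlations cannot settle whether the numbers pair the hearts, and the labels do not say. The causes were not tested. Depth limits Nlrp3, with 14 to 122 counts, and Gsdma, with 5 to 41.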
